A study of Mus musculus with 2 samples.

Results

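The T-box transcription factor genes examined here are Tbx1, Tbx2, Tbx3, Tbx4, Tbx5, Tbx15, Tbx18, Tbx20, T and Eomes. They were chosen by name, with earlier results of these data known, so any excess over all genes given below is descriptive only. They are 10 of the 17203 protein-coding genes in which a cytosine was covered in both libraries. Each was taken as its annotated gene body plus 2 kb upstream, called the promoter below. These regions held 927 of the 826937 covered cytosines, with 152 in promoters and 775 in gene bodies, and the 927 positions belonged to 849 CpGs. The study compared DNA methylation in embryonic fibroblasts of C57BL/6 mice (MEFs) by RRBS, bisulfite sequencing of a reduced part of the genome. The wt MEFs were ERβ+/+ and the βerko MEFs were ERβ-/-, that is, without functional oestrogen receptor β. There was 1 library per cell type, made from 3 pooled batches of genomic DNA, and both cell types were kept in the same medium. In RRBS, DNA is cut by MspI at CCGG, fragments in a size range are treated with bisulfite, and a cytosine still read as cytosine counts as methylated.

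T-box proteins bind DNA through a shared domain, the T-box, and switch developmental genes on or off. Tbx5 marks the forelimb and Tbx4 the hindlimb, while Tbx2 and Tbx3 are repressors at the limb margins and in the heart. Tbx1, Tbx15, Tbx18 and Tbx20 act in the pharynx, the trunk and limb mesenchyme, the somites and epicardium, and the heart, and T and Eomes act in the early mesoderm. In the mouse genome Tbx2 lies beside Tbx4 and Tbx3 beside Tbx5. Promoters of such genes often lie in CpG islands, which are usually free of methylation.

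The methylation of a position is the percentage of its reads that were methylated, and differences are βerko minus wt in percentage points. A differentially methylated position (DMP) had more than 4 reads in both libraries and a value below 20 % in either library with a value above 80 % in its counterpart. It is called hypomethylated or hypermethylated by its state in βerko MEFs. Read numbers were given for DMPs and were not used for other positions, so the depth behind the other percentages is unknown. At the DMPs of the T-box genes, coverage was 6 to 79 reads in wt and 10 to 127 reads in βerko MEFs where hypomethylated, and 14 to 83 and 13 to 72 reads where hypermethylated. Each DMP was tested on its methylated and unmethylated reads (Fisher's exact test, two-sided), with Benjamini-Hochberg adjustment over all 826937 positions. The DMPs were chosen by the same reads, so passing this test depends mainly on depth and is no separate evidence of a difference. With 1 library per group, what is tested is a pair of libraries rather than a genotype, and the reads are PCR copies without molecular identifiers, so that intervals cover counting error only. Means over a region have no replicate check. As a rough measure of their spread, the change of a region was computed for each strand alone. In 13 promoters and gene bodies of the T-box genes with at least 5 positions per strand, both values differed by a median of 7.95 points and at most 13.4 points. This strand spread mostly compares different CpGs, since 78 of the 849 CpGs were covered on both strands. At those 78, the strands differed by a median of 11.39 points in wt and 4.76 points in βerko MEFs, with 90th percentiles of 40.7 and 41.5 points. Over the whole series the medians were 1.8 and 1.35 points. Of 25 CpGs that changed by at least 50 points on either strand, 8 did so on both with the same sign. At Esr2, the gene of oestrogen receptor β, 32 positions averaged 54.0 % in wt and 44.8 % in βerko MEFs. Such values neither check the knock-out nor tell which cells the cultures held.

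Several DMPs lay close together, and the following stretches show 6 such groups in Tbx3, Tbx4, Tbx15 and Tbx18. A run is at least 3 DMPs of the same direction with gaps of at most 100 bp, and each sequence is given with 20 bp on both sides, 5′ to 3′ on the plus strand of NCBIM37 (mm9), with the CpGs that were DMPs in capitals. The first 4 were methylated in wt MEFs and nearly unmethylated in βerko MEFs, and the 2 from Tbx4 were the reverse.
Tbx3 upstream of the start, chr5:120119935-120120037: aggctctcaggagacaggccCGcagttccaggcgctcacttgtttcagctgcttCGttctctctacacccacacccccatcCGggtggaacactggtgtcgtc
Tbx3 coding exon, chr5:120130551-120130647: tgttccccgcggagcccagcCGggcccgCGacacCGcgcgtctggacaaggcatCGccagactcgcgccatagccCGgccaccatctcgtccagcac
Tbx15 intron, chr3:99061066-99061207: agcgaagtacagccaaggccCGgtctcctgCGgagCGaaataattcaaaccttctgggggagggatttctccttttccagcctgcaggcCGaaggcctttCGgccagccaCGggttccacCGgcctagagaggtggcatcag
Tbx18 coding exon and intron (gene on the minus strand), chr9:87624131-87624354: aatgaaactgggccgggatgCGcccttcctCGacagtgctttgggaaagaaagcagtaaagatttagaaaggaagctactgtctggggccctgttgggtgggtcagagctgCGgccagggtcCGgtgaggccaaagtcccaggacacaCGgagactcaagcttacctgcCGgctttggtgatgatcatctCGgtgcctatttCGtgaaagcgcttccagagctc
Tbx4 intron near the start, chr11:85700193-85700267: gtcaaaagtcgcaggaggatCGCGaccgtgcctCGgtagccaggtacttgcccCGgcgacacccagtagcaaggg
Tbx4 intron further inside, chr11:85708543-85708598: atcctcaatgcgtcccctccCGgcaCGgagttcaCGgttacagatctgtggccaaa

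Methylation of the T-box genes differed between wt and βerko MEFs in both directions, with hypomethylated DMPs in 7 genes and hypermethylated DMPs in 3. The share of all genes that hold a DMP was not computed, so these 2 counts have no background. Holding a DMP also depends on coverage, which ranged from 16 positions in Tbx20 to 200 in Tbx1. The 927 positions of the T-box genes averaged 39.7 % in wt and 29.0 % in βerko MEFs, a difference of -10.8 points beside -1.89 points over all covered positions. Hypomethylated DMPs made up 62 of the 927 positions, or 6.69 %, whereas 0.666 % of the positions in protein-coding genes and their promoters and 0.700 % of all positions were hypomethylated DMPs. Hypermethylated DMPs made up 16 positions, or 1.73 %, beside 0.164 % and 0.237 %. By Fisher's exact test 60 of the 62 hypomethylated and all 16 hypermethylated DMPs passed an adjusted p-value of 0.05, beside 91.8 % and 89.5 % of such DMPs in the whole series. Neighbouring DMPs may be read from the same molecules, and counted as stretches of 1 strand within 100 bp they formed 34 hypomethylated and 10 hypermethylated stretches.

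The share of T-box positions that changed by less than 20 points in either direction was 51.5 %, beside 82.8 % of all positions. Losses of at least 50 points were found at 154 positions, or 16.6 %, where 2.74 % of the positions in protein-coding genes and promoters and 2.92 % of all positions showed them. Gains of at least 50 points were found at 57 positions, or 6.15 %, beside 1.03 % and 1.47 %. Because a DMP must start near 0 or near 100 %, the starting level also counts. Of the 180 T-box positions above 80 % in wt MEFs, 34.4 % became hypomethylated DMPs, beside 2.50 % of such positions in all genes and promoters. Of the 360 positions below 20 % in wt MEFs, 4.44 % became hypermethylated DMPs, beside 0.277 %. Of these 360 and 180 positions, 303 were below 20 % and 67 above 80 % in βerko MEFs too.

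**Figure D1:**
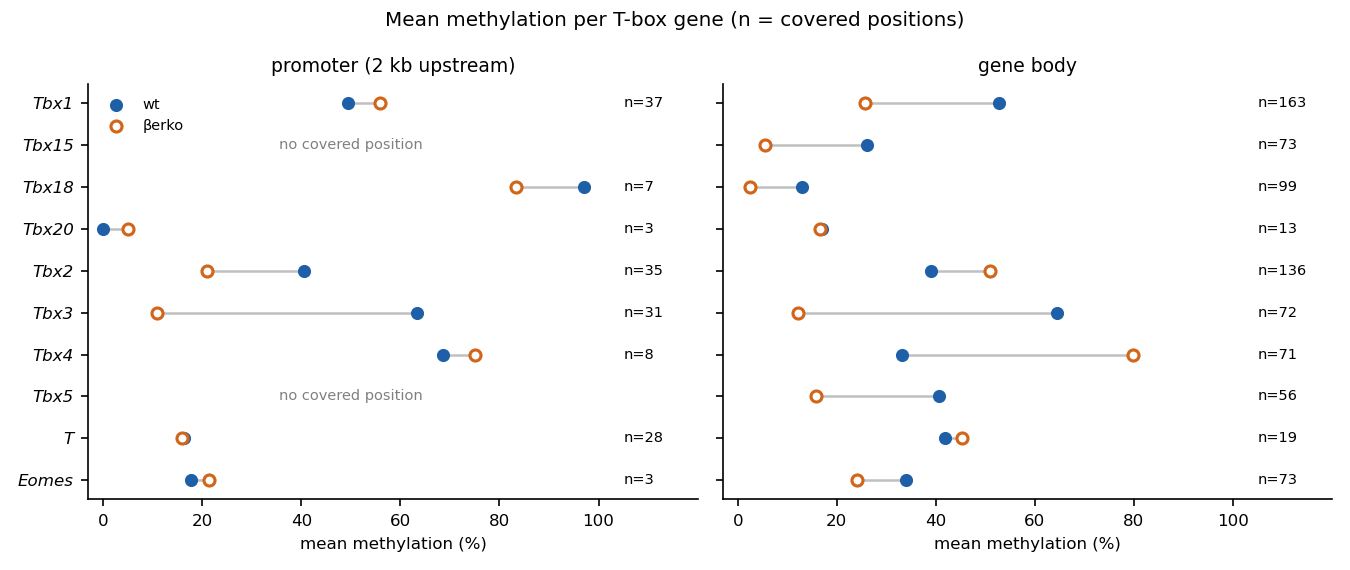
Mean methylation (%) of the promoter (left) and the gene body (right) of each T-box gene in wt (filled) and βerko MEFs (open), with n the number of covered positions; 1 library per cell type, so no error bar is drawn. Tbx3 is far lower in βerko MEFs in both regions, the body of Tbx4 is far higher, and T and Tbx20 differ little.

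Tbx3, a repressor needed for limb and mammary gland formation, showed the largest loss of the 10 genes. Its promoter (31 positions) averaged 63.4 % in wt and 10.8 % in βerko MEFs, and its body (72 positions) 64.5 % and 12.1 %. The differences of -52.6 and -52.4 points placed the promoter 15th from the largest loss among 4603 genes with at least 10 promoter positions, and the body 25th among 12482 genes with at least 10 body positions. The loss was found in each kind of sequence, with coding positions at 68.7 % and 15.4 %, introns at 56.6 % and 11.3 %, and UTR positions at 54.7 % and 0.424 %. Of 33 positions above 80 % in wt MEFs, 23 were hypomethylated DMPs, and all 23 passed Fisher's exact test with adjusted p-values of 4.06e-06 or less. Around the start of the transcript Tbx3-001, 22 positions within 500 bp averaged 53.6 % in wt and 0.321 % in βerko MEFs. None of the 22 was a DMP. At chr5:120120538 in this window, 4 of 4 reads were methylated in wt and 0 of 64 in βerko MEFs, too few wt reads for a DMP. The depth at the other positions of the window is unknown.

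Within Tbx3 the DMPs lay from -723 to 2790 bp and from 9893 to 10279 bp relative to the start. In the upstream run of 3 DMPs, -723 to -661 bp from the start, methylation was 85.7 % of 21 reads, 94.3 % of 53 reads and 81.1 % of 53 reads in wt MEFs, and 0 % of 34 reads, 3.64 % of 110 reads and 0.91 % of 110 reads in βerko MEFs. The largest difference with enough reads was at chr5:120120326, -352 bp from the start, with 24 of 24 reads methylated in wt (exact 95 % confidence interval 85.8 to 100 %) and 0 of 36 in βerko MEFs (0 to 9.74 %, adjusted p = 1.29e-14 by Fisher's exact test). The coding run of 6 DMPs printed above lay 9893 to 9949 bp into the gene and had means of 95.7 % and 6.3 % (80.8 % and 6.26 % over all 11 covered positions of the stretch). A neighbouring coding run of 8 DMPs, chr5:120130771-120130958, had means of 87.8 % and 6.86 %, and all its DMPs passed the test. Over all 17 covered positions of that stretch the means were 75.01 % and 21.98 %, and 3 of the 17 were higher in βerko MEFs. The 4 positions within 500 bp of the start of the retained-intron transcript Tbx3-003 were at 67.4 % in wt and 76.9 % in βerko MEFs.

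Tbx5, the forelimb gene that neighbours Tbx3, lost methylation in the first part of its gene. Its body (56 positions) averaged 40.6 % in wt and 15.7 % in βerko MEFs, and no position of its promoter was covered. Between 1 and 5 kb from the start, 17 positions had means of 59.3 % and 0.611 %, and the first 1 kb (14 positions) had 16.4 % and 0.169 %. The 5 hypomethylated DMPs were intronic, 2.83 to 5.45 kb from the start, with 81.2 to 94.1 % in wt and 0 to 2.38 % in βerko MEFs, and all passed Fisher's exact test with adjusted p-values of 2.04e-08 or less. Another 2 intronic positions, with all of 4 wt reads and none of 17 βerko reads methylated, had too few reads to be DMPs.

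Far inside Tbx5 the direction was the reverse. The 2 hypermethylated DMPs of Tbx5 lay in an intron 24.6 kb from the start and 58 bp apart, on opposite strands. At chr5:120309226, methylation was found in 0 of 48 reads in wt (0 to 7.4 %) and 54 of 54 in βerko MEFs (93.4 to 100 %), with an adjusted p of 7.68e-27 by Fisher's exact test. The other position was at 4.92 % of 61 reads and 98.6 % of 72 reads. From 7.16 to 10.5 kb from the start, 11 positions averaged 38.4 % in wt and 21.2 % in βerko MEFs, with 8 lower in βerko MEFs. From 24.6 to 49.8 kb, 8 positions averaged 33.0 % and 78.8 %, and all 8 were higher in βerko MEFs.

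Tbx4, the hindlimb gene, gained methylation in its body. Its 71 body positions averaged 33.2 % in wt and 79.7 % in βerko MEFs, and the difference of 46.5 points was the largest gain among the 12482 genes. The median position was at 20.6 % and 93.8 %, and 57 of the 71 positions gained at least 20 points while 1 lost as much. The gain was 56.0 points in introns (41 positions), 33.4 points in coding sequence (15 positions) and 33.7 points in UTRs (15 positions). By distance from the start, the first 1 kb averaged 28.9 % in wt and 89.5 % in βerko MEFs, the part from 1 to 5 kb 16.4 % and 67.0 %, and the rest 52.4 % and 87.2 %. The promoter as defined here had 8 positions with 68.6 % and 75.02 %, a difference below the median strand spread, which was not computed for this promoter. This mean joins opposite changes, since 2 positions gained and 1 lost at least 20 points. At -8 bp methylation rose from 31.25 to 87.9 %, and at -558 bp it fell from 89.2 to 58.8 %. From 500 bp upstream to 100 bp downstream of the start, the difference was 36.2 points.

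The 13 hypermethylated DMPs of Tbx4 lay 180 to 8774 bp from the start, 12 in introns and 1 in coding sequence. They ranged from 4.17 to 18.9 % in wt and from 91.2 to 100 % in βerko MEFs. Coverage was 23 to 83 reads in wt and 13 to 34 reads in βerko MEFs. The definition of a DMP sets such ranges apart, and the largest adjusted p by Fisher's exact test was 0.000151. The run of 4 near the start, printed above, had means of 12.2 % and 94.8 %, and the run of 3 further inside 8.03 % and 96.9 %. At chr11:85708698, in the same intronic part, 2 of 48 reads were methylated in wt (0.509 to 14.3 %) and 20 of 20 in βerko MEFs (83.2 to 100 %, adjusted p = 1.03e-12 by Fisher's exact test). Tbx4 has more than 1 annotated start, and at each start with covered positions the level was higher in βerko MEFs. Within 500 bp of Tbx4-001, 20 positions had 35.4 % in wt and 85.4 % in βerko MEFs, and within 500 bp of Tbx4-201, 11 positions had 7.91 % and 53.4 %.

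Tbx2, a repressor that neighbours Tbx4, lost methylation in its promoter and had higher values in its body. The promoter (35 positions) averaged 40.4 % in wt and 21.0 % in βerko MEFs. Its 2 hypomethylated DMPs, -705 and -526 bp from the start, were at 87.9 % of 33 reads and 85.7 % of 21 reads in wt, and at 16.7 % of 30 reads and 0 % of 35 reads in βerko MEFs, with adjusted p-values of 1.52e-06 and 1.54e-09 by Fisher's exact test. The first 1 kb of the gene (34 positions) was almost free of methylation in both, at 2.14 % and 1.53 %. From 1 to 5 kb, 53 positions had means of 49.4 % and 70.6 %. The body as a whole (136 positions) had 39.1 % and 51.0 %, and this difference of 11.9 points was above the median strand spread and below its maximum. None of the Tbx2 body positions was a DMP, and 10 gained and 2 lost at least 50 points, the largest gain being from 28.6 to 100 % in coding sequence.

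**Figure D2:**
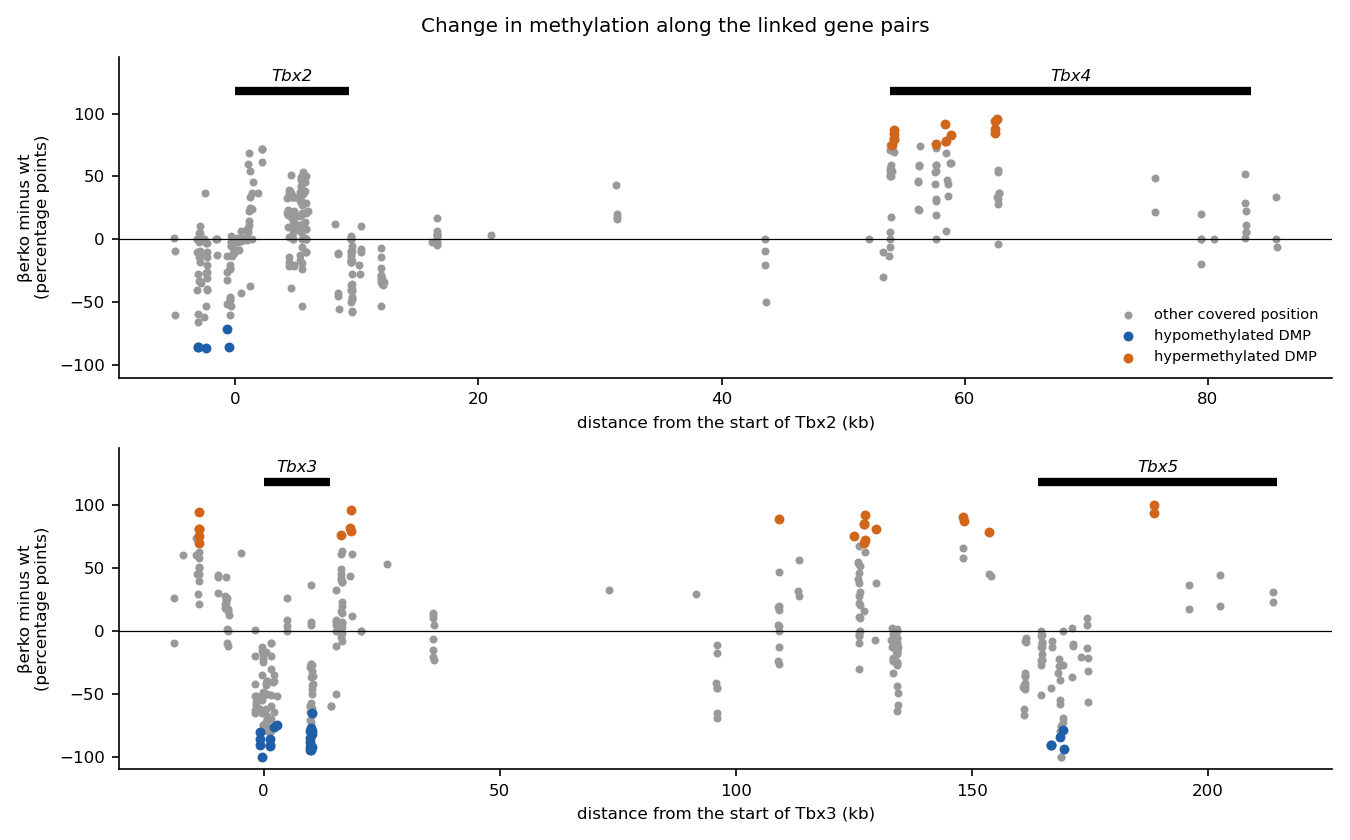
Difference in methylation (βerko minus wt, percentage points) of each covered position against the distance (kb) from the start of Tbx2 (top) and Tbx3 (bottom), both on the plus strand; bars mark the genes, and DMPs are coloured. Losses and gains lie in blocks, with losses at Tbx3, at the start of Tbx5 and upstream of Tbx2, and gains in Tbx4, in the body of Tbx2 and on both sides of Tbx3.

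Around the linked genes, neighbouring stretches differed in the sign of their change. In the 20 kb beyond the promoter of Tbx3, 39 positions had means of 29.9 % in wt and 67.7 % in βerko MEFs, with 5 hypermethylated DMPs and no hypomethylated DMP, next to the promoter at 63.4 % and 10.8 %. Between Tbx3 and the promoter of Tbx5 (148 kb), 151 positions had 39.5 % and 47.5 %, with 15 hypermethylated and no hypomethylated DMPs. The first 20 kb after Tbx3 had 46.7 % and 69.0 % (37 positions), while the last 15 covered positions before the promoter of Tbx5 had 38.0 % and 0 %. In the 5 kb beyond the promoter of Tbx2, 46 positions had 93.3 % and 71.9 %, with 3 hypomethylated DMPs. Between Tbx2 and the promoter of Tbx4, 59 of the 68 covered positions lay in the first 10 kb after Tbx2, at 31.9 % and 12.3 %, and none was a DMP.

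Tbx1, known for its part in the pharyngeal arches and the outflow tract of the heart, lost methylation in its body, while no position of its promoter was a DMP. The body (163 positions) averaged 52.8 % in wt and 25.6 % in βerko MEFs, a difference of -27.2 points, with 116 coding positions at 47.9 % and 19.1 % and 41 intronic positions at 71.2 % and 46.7 %. The promoter (37 positions) had means of 49.4 % and 56.0 %, a difference within the strand spread, and medians of 44.4 % and 65.5 %. By its mean difference this promoter ranked 80th from the largest gain among 4603 genes with at least 10 promoter positions. The largest gain there was from 25 % to 82.8 %, at unknown depth. Around the inner start of Tbx1-201, 45 positions had 40.1 % and 19.5 %, and around the outer start of Tbx1-202, 32 positions had 46.7 % and 51.8 %. Of 7 hypomethylated DMPs, 5 passed Fisher's exact test (largest adjusted p of the 7, 0.246), and coverage in wt MEFs was low at 6 to 46 reads with a median of 7. The largest loss was at chr16:18582184, in coding sequence, with 6 of 6 reads in wt (54.1 to 100 %) and 3 of 28 in βerko MEFs (2.27 to 28.2 %, adjusted p = 0.00778 by Fisher's exact test).

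Tbx15, which acts in the mesenchyme of trunk and limbs, had its DMPs in introns. The 13 hypomethylated DMPs, of which 10 were in 2 runs, spanned 4.79 kb and lay 2.79 to 7.58 kb downstream of the coding start, with 83.3 to 100 % in wt and 0 to 2.44 % in βerko MEFs and 10 to 71 and 33 to 125 reads. All passed Fisher's exact test, with adjusted p-values of 1.05e-07 or less. At chr3:99061101, inside the run printed above, 23 of 23 reads were methylated in wt and 0 of 41 in βerko MEFs (adjusted p = 3.39e-15 by Fisher's exact test). From the first to the last of these DMPs, 14 intronic positions were covered, which averaged 94.99 % in wt and 0.357 % in βerko MEFs. They include chr3:99060887, with 4 of 4 reads methylated in wt and 0 of 42 in βerko MEFs, too few wt reads for a DMP. The other 59 positions of the gene had means of 9.79 % and 6.67 %. The annotated gene begins with a processed transcript, and its promoter there held no covered position. The start of the coding transcript Tbx15-001 lies 13.4 kb further in, and the 41 positions within 500 bp of it were unmethylated in both, at 0.276 % and 0.0841 %.

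Tbx18, a gene of somites and epicardium, had its DMPs in a single run. The 9 hypomethylated DMPs were all in the run printed above, 1762 to 1944 bp from the start, of which 6 were intronic and 3 coding, and they averaged 89.9 % in wt and 2.19 % in βerko MEFs. At chr9:87624254, 35 of 35 reads were methylated in wt (89.997 to 100 %) and 1 of 49 in βerko MEFs (0.0517 to 10.9 %, adjusted p = 6.39e-20 by Fisher's exact test). The other 90 body positions had means of 5.27 % and 2.51 %, and 7 promoter positions, all more than 1 kb upstream, had 97.0 % and 83.3 %. Of all 99 body positions, 16 lost at least 20 points. Those of the 16 that were not DMPs lay next to the run, 1549 to 1689 bp from the start. No DMP of Tbx18 lay in the first 1 kb, where 39 positions were at 0.582 % and 0.409 %. These lay 667 to 969 bp from the start, and no position within 500 bp of the start was covered.

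**Figure D3:**
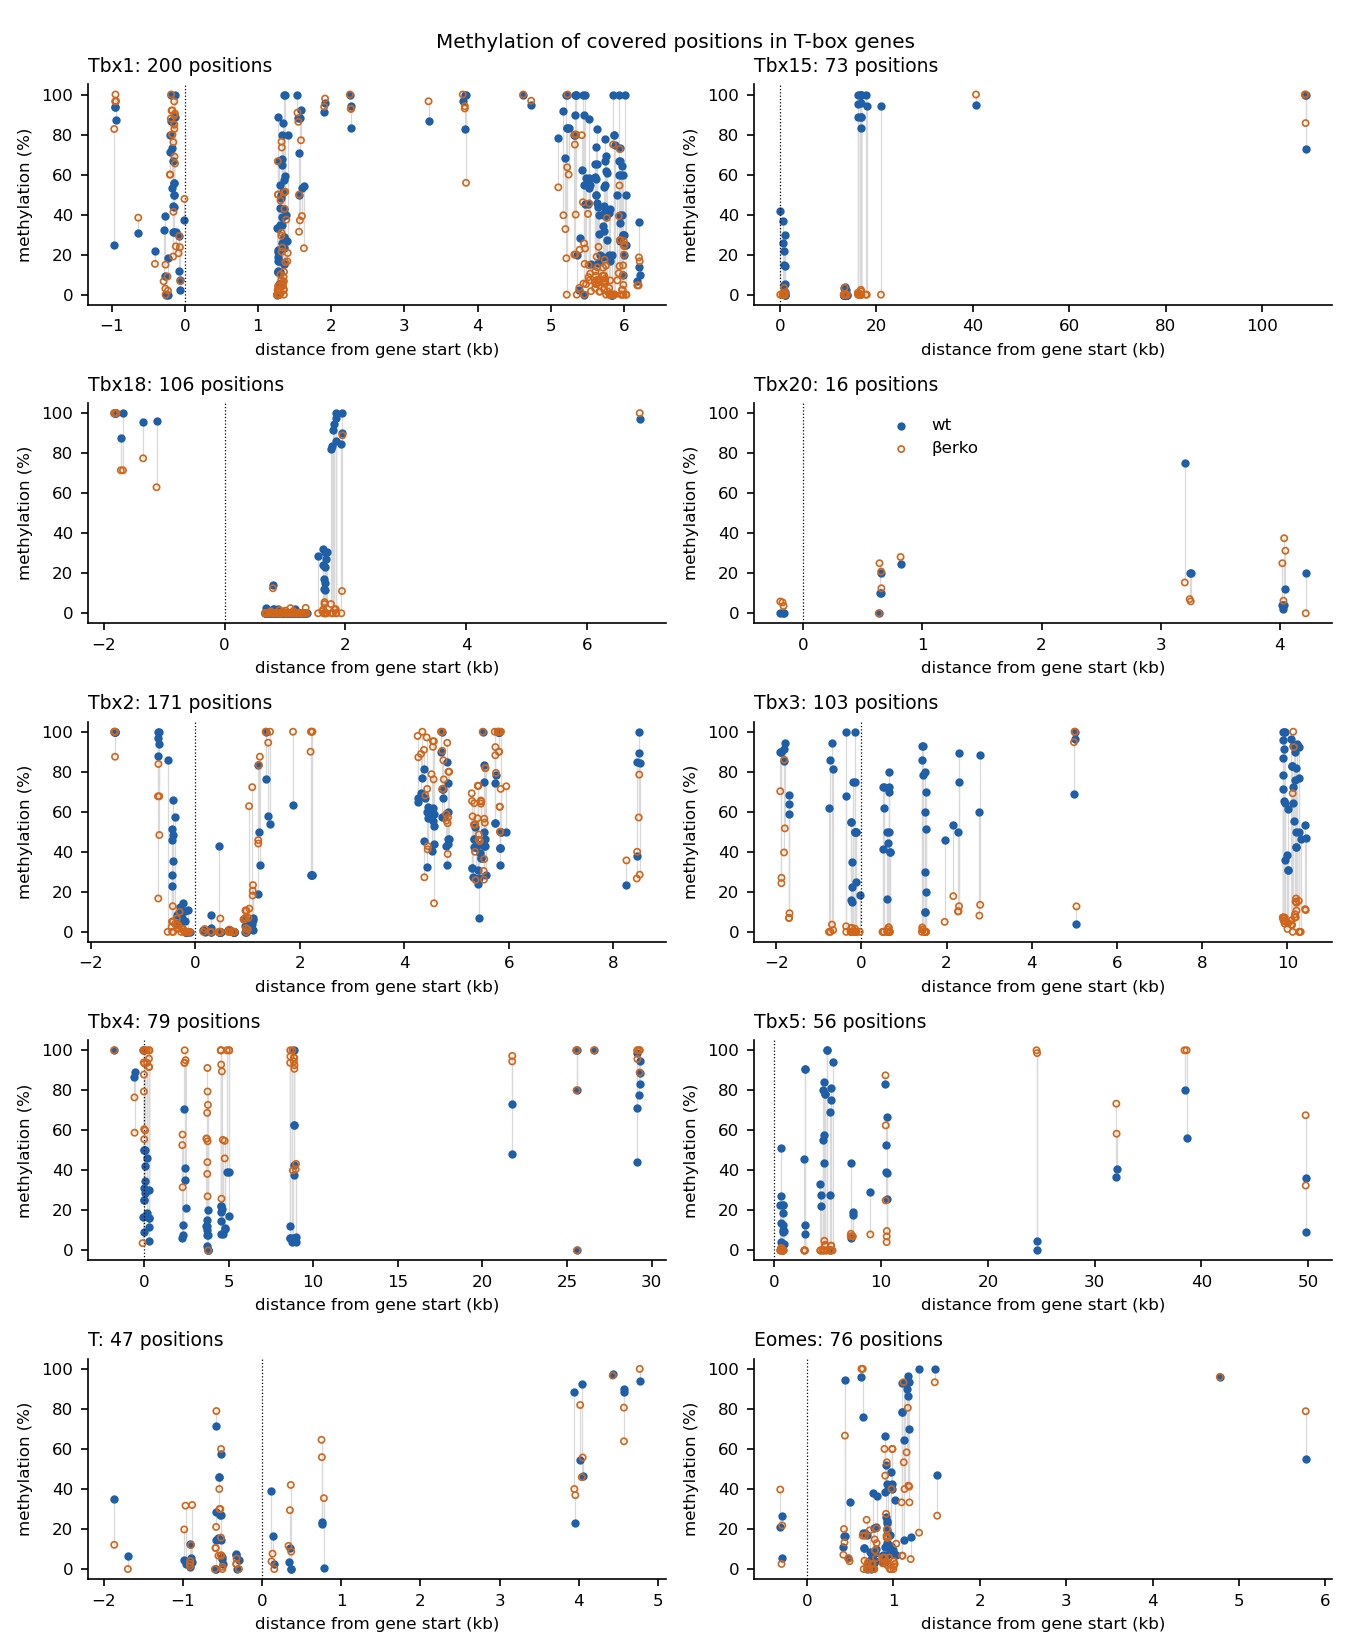
Methylation (%) of every covered position in wt (filled) and βerko MEFs (open) against the distance from the gene start in kb along the direction of transcription, for each T-box gene; grey lines join both values of a position. In Tbx15 and Tbx18 a group of positions inside the gene drops from above 80 % to near 0 %, in Tbx3 positions drop along the gene, and in Tbx4 they rise.

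Tbx20 and T held no DMP. Tbx20, needed for heart formation, had 13 body positions at 17.1 % in wt and 16.5 % in βerko MEFs and 3 promoter positions at 0 % and 4.99 %. Its largest loss, in an intron, was from 75 % to 15.4 %, at unknown depth. T, the brachyury gene of the early mesoderm, had 28 promoter positions at 16.2 % and 15.9 % and 19 body positions at 41.8 % and 45.3 %, with no change of 50 points in either direction. Within 500 bp of the start of its transcript T-002, 10 positions had 12.0 % and 25.9 %.

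Eomes, which acts in mesoderm and endoderm formation, had 73 body positions with means of 34.0 % and 24.2 %, and 3 promoter positions with 17.8 % and 21.4 %. It held 3 hypomethylated DMPs and 1 hypermethylated DMP, and all 4 passed Fisher's exact test, with a largest adjusted p of 0.0263. At chr9:118388432, in coding sequence, 13 of 14 reads were methylated in wt and 1 of 15 in βerko MEFs, with an adjusted p of 0.000411 by Fisher's exact test. At chr9:118388447, only 15 bp away on the same strand, 2 of 14 reads were methylated in wt and 14 of 15 in βerko MEFs, with an adjusted p of 0.00283 by Fisher's exact test. Both positions had the same coverage in each library. In the 3 kb downstream of Eomes, 53 positions had means of 79.1 % and 33.6 %, with 4 hypomethylated DMPs.

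Set against all protein-coding genes, 4 of the 10 T-box gene bodies (Tbx1, Tbx3, Tbx5 and Tbx15) had a mean loss of at least 20 points, where 3.03 % of 12482 genes did. This call depended on the average taken, since with the mean of 500 bp bins Tbx1 and Tbx5 were at -12.2 and -15.2 points and Tbx15 at -45.9 points, and with the median over positions Tbx15 was at 0. A mean gain of at least 20 points was found in 1 of 10, Tbx4, where 0.296 % of the genes showed one. Of the 4 T-box promoters with at least 10 positions, 1 lost at least 20 points, beside 4.04 % of 4603 genes, and none gained as much, beside 0.174 %. The median difference of the T-box genes was -9.87 points in promoters and -10.1 points in bodies, beside -0.2 and -0.439 points over all genes. The promoter median was 1.53 points with a window from 1000 bp upstream to 500 bp downstream, and the body median was 0 with the median over positions. From the largest loss, Tbx1 ranked 186th, Tbx5 233rd, Tbx15 358th, Tbx18 1086th and Eomes 1192nd of the gene bodies, and Tbx2 ranked 169th from the largest gain.

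**Figure D4:**
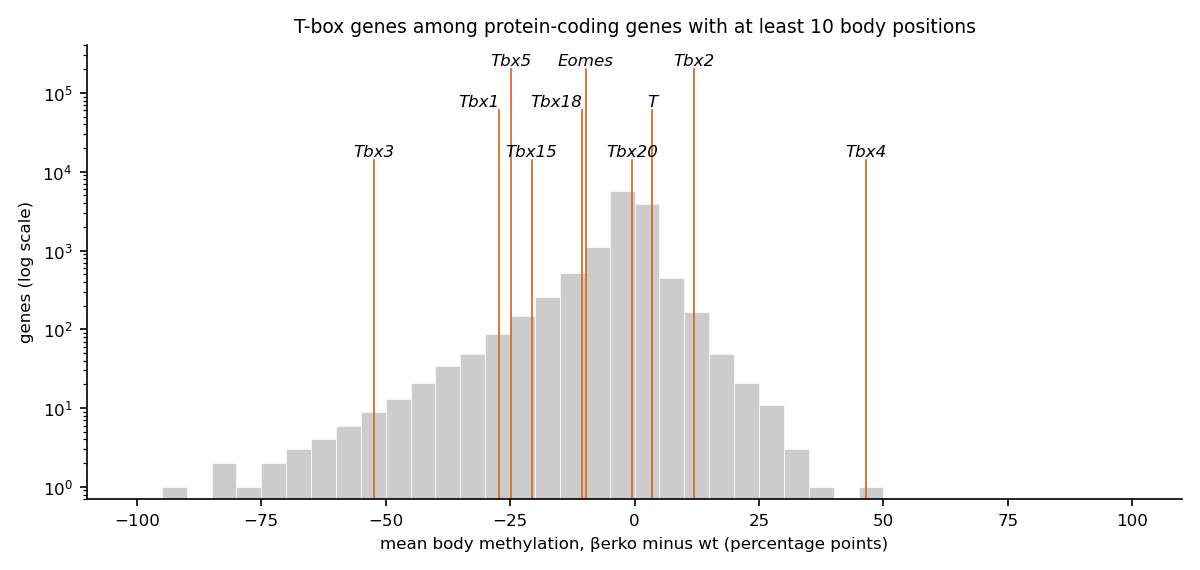
Number of protein-coding genes (log scale) by the difference in mean body methylation (βerko minus wt, percentage points, in steps of 5), for 12482 genes with at least 10 body positions, with the T-box genes as labelled lines. Tbx3 lies in the left tail at -52.4 points, Tbx4 is the gene furthest to the right at 46.5 points, and Tbx20 lies in the centre.

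By kind of sequence, the hypomethylated DMPs of the T-box genes comprised 27 coding, 28 intronic, 6 upstream and 1 UTR position, and the hypermethylated DMPs 14 intronic and 2 coding positions. The covered positions of these genes were 362 coding, 330 intronic, 152 upstream and 83 UTR positions, so the split partly follows coverage. Shares by kind of sequence over all genes were not computed. Of the DMPs, 39 of 62 hypomethylated and 7 of 16 hypermethylated ones lay in runs, in 7 and 2 runs. Over the whole series 38.5 % of the hypomethylated and 4.9 % of the hypermethylated DMPs lay in runs. The sequence within 100 bp of each CpG held a median of 12 CpGs around hypomethylated DMPs (59 CpGs), 9 around hypermethylated DMPs (16 CpGs) and 18 around the other CpGs of the T-box genes (774), beside 13 around all 756270 covered CpGs. The core of the T-box binding site, GGTGTGA, was searched in the same windows on both strands. It was found near 1 of the 59 hypomethylated and none of the 16 hypermethylated DMPs, and near 2.35 % of all covered CpGs. The oestrogen response element, taken as GGTCA and TGACC with any 3 bases between them, was found near none of the 849 CpGs of the T-box genes, and near 0.0206 % of all covered CpGs. At so low a share, finding none near 849 CpGs says little. The authors wrote the element with a shorter spacer, so their counts cannot be set beside these.

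Limb and trunk genes that act with the T-box genes were read in the same way, over promoter and body together. Of 18 limb genes, all with at least 10 positions, 4 (Pitx1, Bmp4, Irx3 and Meis2) had a mean loss of at least 20 points, where 2.93 % of 13622 genes did, and none a gain, beside 0.257 %. The median difference was -6.81 points. Hypomethylated DMPs made up 87 of their 1869 positions (4.65 %) and hypermethylated DMPs 13 (0.696 %). Pitx1 alone held 46 of the 87 and 7 of the 13. Of 18 genes of heart, trunk and mesoderm, 16 had at least 10 positions, 3 (Gata6, Mef2c and Foxc2) had a mean loss of at least 20 points and none a gain, and the median was -6.08 points. Their 1423 positions held 50 hypomethylated (3.51 %) and 5 hypermethylated DMPs (0.351 %). Gata6 alone held 30 of the 50. Of the T-box genes the shares were 6.69 % and 1.73 %, with 23 of the 62 hypomethylated DMPs in Tbx3 and 13 of the 16 hypermethylated ones in Tbx4. The shares thus rest in large part on single genes, and the difference between the lists was not tested.

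Pitx1, which acts upstream of Tbx4 in the hindlimb, held 46 hypomethylated and 7 hypermethylated DMPs, and its mean over 180 positions was 65.7 % in wt and 31.2 % in βerko MEFs, so that it differed in sign from Tbx4. Its promoter (34 positions) was at 84.0 % and 20.3 %. In its body (146 positions), 58 positions lost and 10 gained at least 50 points. The authors reported hypermethylation in βerko MEFs at a Pitx1 position, which they placed in the promoter region, and higher Pitx1 expression in wt cells. That position was not matched to those read here. Gata6, a factor of heart and endoderm, held 30 hypomethylated DMPs with means of 75.1 % and 24.2 % over 151 positions, and Meis2, a factor of the proximal limb, 14 with 48.6 % and 26.3 % over 104 positions. Bmp4, a signal of limb margin and mesoderm, held 5 hypomethylated DMPs with 71.7 % and 34.4 %. The homeobox gene Irx3 held 6 (41.2 % and 15.8 %) and the forkhead gene Foxc2 held 5 (31.6 % and 7.01 %). Fgf8, the signal of the limb ridge, and Gata4, a heart factor, each held 4 hypomethylated and 1 hypermethylated DMP, with means of 58.0 % and 42.1 % and of 49.5 % and 34.2 %. The T-box genes outside the 10 were sparsely covered. Of 7, only Tbr1 and Tbx21 had at least 10 positions, and Tbr1, a factor of the cortex, had 87.1 % in wt and 66.4 % in βerko MEFs over 84 positions without a DMP. Tbx21, a factor of T cells, had 41.0 % and 35.4 % over 53 positions, also without a DMP. Tbx22, covered at 6 positions, held 2 hypomethylated DMPs.

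**Figure D5:**
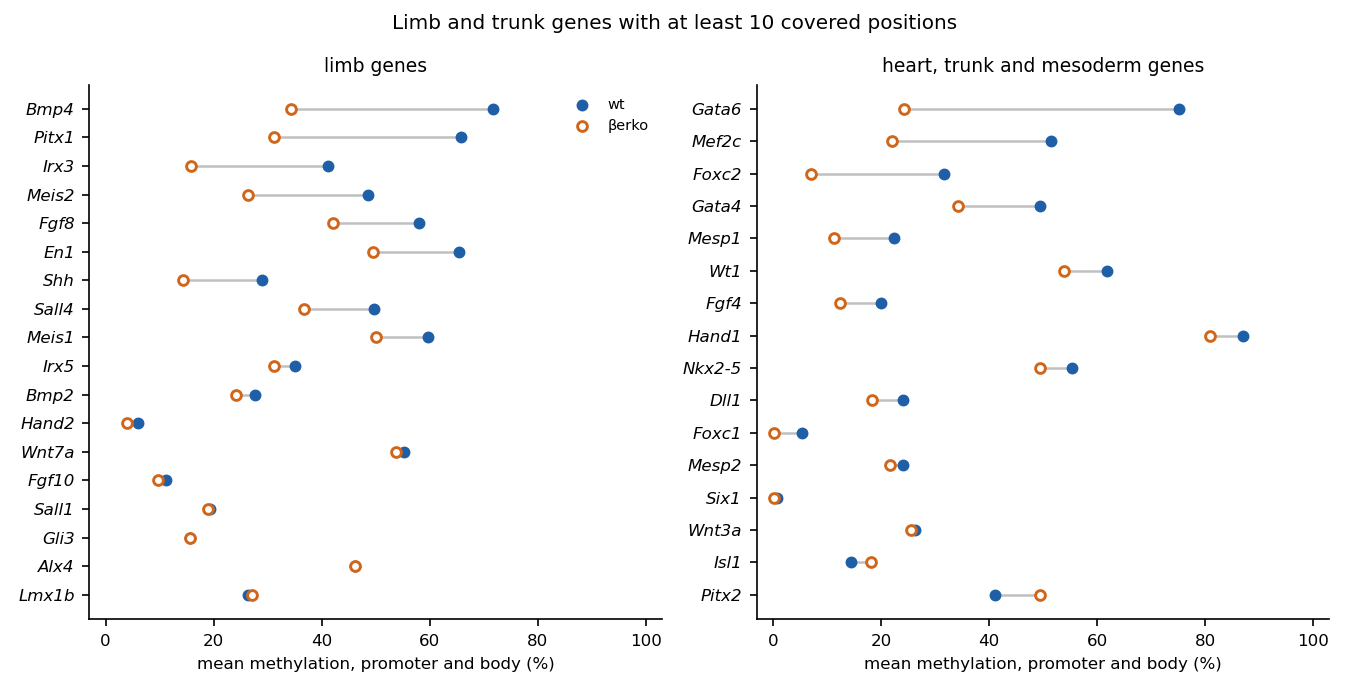
Mean methylation (%) over promoter and body in wt (filled) and βerko MEFs (open) of limb genes (left) and of heart, trunk and mesoderm genes (right) with at least 10 covered positions, ordered by the difference. Bmp4 and Pitx1 on the left and Gata6 on the right show the largest losses, and no gene of either list gained 20 points.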

How the data were processed

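Genomic DNA of wt and βerko MEFs was sequenced by the authors after MspI digestion, and reads were mapped with the Genomatix Mining Station, whose version is not given in the sources used here. The submitters' processing notes name CASAVA 1.4 and the build mm9. The authors deposited a percent methylation per cytosine for positions shared by the libraries, with no coverage, and for DMPs the read counts per library with the authors' annotation, which was not used. Methylated counts were recovered as percent times coverage and were whole in 16142 of 16142 values, within 0.05 reads. All 826937 positions were CpG cytosines in NCBIM37, and genes were taken from GENCODE vM1 on that build.

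The T-box genes and the gene lists were chosen with earlier results of these data known. All 10 genes were named, with runs of at least 3 DMPs within 100 bp and, in each gene, the largest change of at least 50 points in each direction. From the limb and trunk lists, genes with at least 5 DMPs were named. Mef2c, Tbr1, Tbx21 and Tbx22 were named after their values were seen. Fisher's exact test could be run only where read counts were deposited, with all other positions at a p-value of 1. Intervals of single positions are Clopper-Pearson intervals at 95 %. Position numbers in the text follow each gene's annotated start. Alternatives were tried for the promoter window, merged strands, medians, bins, read minimum, thresholds and the minimum of positions per gene. Procedures were tested on simulated data. Scripts ran in Python 3.11.15 (SciPy 1.17.1, NumPy 2.4.6, pandas 2.3.3), with pysam 0.24.0 for sequences and matplotlib 3.10.9 for plots.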

Additional observations from a re-analysis of the deposited data

How the results depend on the processing

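Gene-level medians were sensitive to the choice of region and average. The median promoter difference of -9.87 points became 1.53 points with a window from 1000 bp upstream to 500 bp downstream of the start, where Tbx4 enters with 22 positions and a gain of 43.6 points. The median body difference of -10.1 points became 0 with the median over positions in place of the mean, and 50 of the 73 Tbx15 and 81 of the 99 Tbx18 body positions were below 20 % in both libraries. Thresholds of 10 and 90 % left 28 of the 62 hypomethylated and 7 of the 16 hypermethylated DMPs, and 58 and 16 with at least 10 reads. Without Tbx3, an alternative chosen after seeing the data, 39 hypomethylated DMPs were left and the share of positions with a loss of at least 50 points was 10.9 % in place of 16.6 %. At 20 points, 33.0 % of the T-box positions lost and 15.5 % gained, beside 10.4 % and 6.81 % of all positions. Of 77 promoter or body differences of single genes recomputed under alternatives, 25 moved by more than the strand spread of 7.95 points, and no difference of at least 20 points turned its sign. Among promoters only Tbx3 had a difference of that size. Smaller promoter differences turned their sign in Tbx4 (6.43 to -4.2 points with medians), T, Eomes and Tbx1. From 1000 bp upstream to 500 bp downstream, T went from -0.339 to 1.53 points and Eomes from 3.58 to -5.63 points. Tbx1 went from 6.59 to -9.95 points within 500 bp of every transcript start, a window not planned. The promoters of Tbx2, Tbx18 and Tbx20 kept their sign. With at least 5 positions per gene, Tbx4 ranked 4th from the largest gain. No paired analysis was possible because there is 1 library per group. Depth limits all positions that are not DMPs, since their read numbers are unknown.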
